A study of Caenorhabditis elegans with 2 samples.

Results

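The genes described here encode the RNA of RNase P (rpr-1), the RNA of RNase MRP (mrpr-1) and the RNA of the signal recognition particle, or SRP (srpr-1.1, srpr-1.2, srpr-2.1, srpr-2.2 and srpr-3). They were picked by name from the Ensembl release 115 annotation of Caenorhabditis elegans, with earlier results on these data known. They are 7 of the 46890 nuclear genes of that annotation. At each of them the position and strength of CEH-9 binding peaks within 500 bp were read from the deposited peak lists. CEH-9 is a homeobox transcription factor, and it was mapped by chromatin immunoprecipitation sequencing (ChIP-seq) with an antibody against GFP. The worms were strain OP202, which carries unc-119(ed3) and the integrated transgene wgIs202, so the precipitated protein was CEH-9 fused at its C-terminal end to GFP and FLAG. There was 1 group of 2 biological replicates, each of whole late embryos of pooled sex taken 4.75 h after egg bleaching. No untagged strain, input library or second condition was analysed here, and peak lists hold no expression values with which the stage or tissue could be checked.

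RNase P removes the leader from precursor tRNAs, and RNase MRP is a related enzyme that cuts precursor ribosomal RNA. The SRP brings ribosomes that are making secreted or membrane proteins to the endoplasmic reticulum, and its RNA is the scaffold of that particle. In vertebrates all of these RNAs are made by RNA polymerase III. Which polymerase makes them in Caenorhabditis elegans was not tested here. In vertebrates the RNase P and MRP RNA genes are read from elements upstream of the RNA, a proximal sequence element and a TATA box, whereas tRNA genes are read from the A and B boxes inside the gene. Polymerase III stops at runs of T.

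The gene rpr-1 (WBGene00045238) spans 253 bp of chromosome I, from 13463955 to 13464207 on the plus strand of ce11, in an intron of ints-8. The host gene, which encodes a subunit of the Integrator complex, runs on the other strand. The gene mrpr-1 (WBGene00045095) spans 186 bp of chromosome II, from 7200233 to 7200418 on the plus strand. It lies between E04F6.6, whose 5′ end is 668 bp away on the opposite strand, and pcrg-1, which starts 131 bp beyond its 3′ end. Of the SRP RNA genes, 4 are on chromosome III. They are srpr-1.1 (4378909 to 4379206, minus strand), srpr-1.2 (4369468 to 4369766, plus strand), srpr-2.1 (5211220 to 5211518, plus strand) and srpr-2.2 (5031410 to 5031708, minus strand). The gene srpr-3 is on chromosome V (9293334 to 9293632, minus strand).

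The SRP RNA genes differed in their surroundings. The gene srpr-1.2 lies in an intron of ckb-2, a choline kinase family gene on the same strand, between ckb-1 and ckb-3. The gene srpr-2.2 lies in an intron of klp-6, a kinesin gene on the opposite strand, with pcf-11 at 1585 bp and C45G9.6 at 4750 bp, and its first 39 bp also belong to the non-coding RNA gene R144.16. The gene srpr-1.1 begins 115 bp from B0284.3 and ends 2 bp from pals-26. The gene srpr-2.1 lies between syx-16 and ZC155.4, the second of which has its 3′ end 263 bp away on the opposite strand. The gene srpr-3 lies between ZK682.7 at 1169 bp and F44A2.5 at 4000 bp, and the whole of it is also annotated as the non-coding RNA gene F44A2.13. The coding genes nearest to rpr-1 outside its host are Y48G10A.6 and Y48G10A.3. No tRNA, snoRNA, snRNA or rRNA gene lies within 1000 bp of any of the 7 genes (0 found), so none of the summits below was shared with one.

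The 100 bases before the RNA and its first 30 bases are printed for 6 of the 7 genes, because they show the elements on which the RNase MRP gene and the SRP genes differ. They were read from the WBcel235 assembly (RefSeq), the same assembly as ce11, on the strand of the gene. Capitals mark the word GTGTCNGCCGC, the word TATAA or its longer form TATATAA, the word GAGAGA and the word GAAAAACC. On the other strand TATAA reads TTATA, and GAGAGA reads TCTCTC.
mrpr-1: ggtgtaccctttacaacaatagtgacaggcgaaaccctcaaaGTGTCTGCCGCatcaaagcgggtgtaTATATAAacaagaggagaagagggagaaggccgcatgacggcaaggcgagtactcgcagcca
srpr-1.1: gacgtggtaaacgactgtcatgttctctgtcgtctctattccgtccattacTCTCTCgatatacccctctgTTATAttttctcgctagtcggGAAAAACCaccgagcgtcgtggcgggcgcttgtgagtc
srpr-1.2: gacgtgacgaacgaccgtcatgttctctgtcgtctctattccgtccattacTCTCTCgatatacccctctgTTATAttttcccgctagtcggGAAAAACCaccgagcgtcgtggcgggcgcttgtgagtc
srpr-2.1: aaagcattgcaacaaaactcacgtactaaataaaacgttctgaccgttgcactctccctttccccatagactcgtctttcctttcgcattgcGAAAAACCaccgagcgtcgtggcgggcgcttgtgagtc
srpr-2.2: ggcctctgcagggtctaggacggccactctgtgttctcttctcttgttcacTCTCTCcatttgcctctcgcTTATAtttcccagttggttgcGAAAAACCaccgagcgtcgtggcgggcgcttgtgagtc
srpr-3: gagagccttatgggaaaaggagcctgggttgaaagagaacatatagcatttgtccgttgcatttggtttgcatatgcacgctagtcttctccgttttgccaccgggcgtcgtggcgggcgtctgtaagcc

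Both replicates placed a strong summit at the start of rpr-1. Its rank among the 30000 entries of each list, by the authors' peak signal, was 22 in replicate 1, 33 in replicate 2 and 26 in the list made from both replicates together (the pooled list). The signals were 64.5 in replicate 1, 94.2 in replicate 2 and 155 in the pooled list, where the strongest entries had 166, 269 and 416. Each list has its own signal scale, so only ranks are compared. The summits lay 19, 14 and 20 bp inside the RNA, counted from its first base as 0, in replicate 1, replicate 2 and the pooled list. Of all other nuclear genes, 0.124% had a summit within 500 bp at rank 33, the weaker of these replicate ranks, or better in both replicates.

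The gene mrpr-1 also had a strong summit at its start in both replicates, but the replicates ranked it differently. Its rank was 176 in replicate 1, 31 in replicate 2 and 59 in the pooled list, a ratio of 5.68 between the replicates. The summit lay at -6 bp in replicate 1, just before the RNA, and at 27 bp in replicate 2 and 26 bp in the pooled list. Of all other nuclear genes, 0.523% had a summit within 500 bp at rank 176, the weaker of the replicate ranks, or better in both replicates. In replicate 2 alone, 0.175% had one at rank 31 or better. A second, weaker summit lay 46 bp beyond the 3′ end, at rank 1345 in replicate 2 and 24050 in the pooled list, toward the start of pcrg-1.

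Of the SRP RNA genes, srpr-2.2 had the strongest pooled summit, and that strength was seen in 1 replicate. Its rank was 3462 in replicate 1, 81 in replicate 2 and 122 in the pooled list. The summits lay inside the RNA, at 164, 110 and 132 bp. The ratio between the replicate ranks was 42.7. Among the 477 genes with a reproducible summit and a summit in both replicates, the median ratio was 2.31, and 3.98% had a ratio at least as large as that of srpr-2.2. A ratio at least as large as that of mrpr-1 was found at 20.3% of them.

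The gene srpr-3 was ranked the other way round by the replicates. Its rank was 264 in replicate 1, 4330 in replicate 2 and 482 in the pooled list, with summits at 189, 123 and 123 bp. The authors' reproducible list holds the strongest entries of the pooled list, and srpr-3 ranked past the length of that list in all 3 lists. The ranks of srpr-3 and srpr-2.2 crossed between the replicates, so the order of the SRP RNA genes by strength was not the same in both.

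The gene srpr-2.1 ranked 7025 in replicate 1, 473 in replicate 2 and 844 in the pooled list. Its replicate 1 summit lay 50 bp beyond the 3′ end, at 348 bp, whereas those of replicate 2 and the pooled list lay at 13 and 50 bp. The gene srpr-1.2 ranked 4165 in replicate 1, 2534 in replicate 2 and 1408 in the pooled list, at 116, -25 and 31 bp. The gene srpr-1.1 had the weakest pooled summit of the 7 genes, with rank 6246 in replicate 1, none within 500 bp in replicate 2 and rank 15283 in the pooled list. Those summits lay beyond its 3′ end, at 335 and 360 bp, inside the neighbouring coding gene pals-26. Of all other nuclear genes, 24.9% had a pooled summit that ranked as high as that of srpr-1.1, against 4.07% for srpr-1.2, 2.75% for srpr-2.1, 1.81% for srpr-3 and 0.67% for srpr-2.2. The same share was 0.348% for mrpr-1 and 0.149% for rpr-1.

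**Figure D1:**
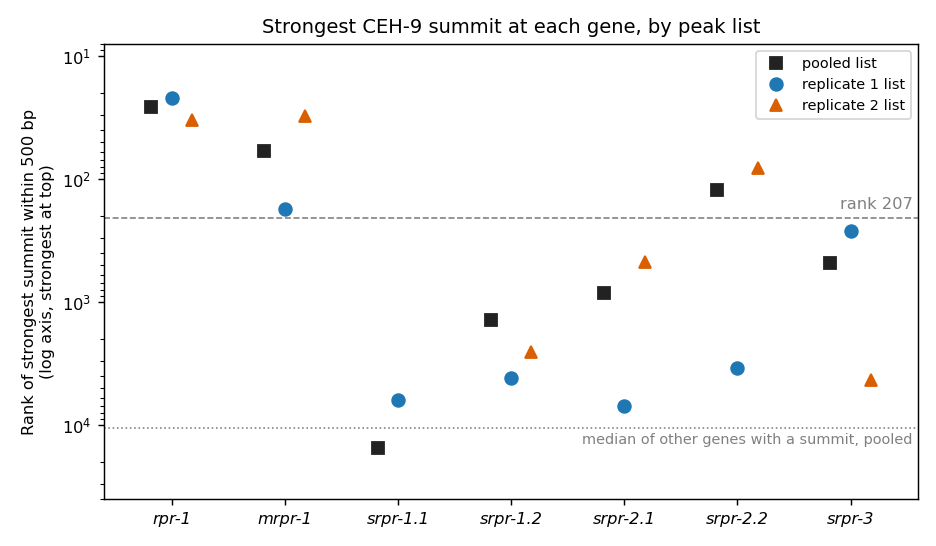
Rank of the strongest summit within 500 bp of each gene (log axis, strongest at the top) in the pooled list (squares), replicate 1 (circles) and replicate 2 (triangles). The dashed line is the length of the reproducible list and the dotted line the median pooled rank of the other nuclear genes with a summit, 10587. The genes rpr-1 and mrpr-1 are above the dashed line in all 3 lists, srpr-2.2 in the pooled list and replicate 2, and the other 4 genes in none.

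The reproducible list held a summit within 500 bp of 3 of the 7 genes (42.9%, exact Clopper-Pearson 95% interval 9.9 to 81.6%), which were rpr-1, mrpr-1 and srpr-2.2. The share over all nuclear genes was 1.02%. Among the strongest entries of replicate 1, as many as the reproducible list holds, there were 2 of the 7 (all genes, 0.949%), among those of replicate 2 there were 3 (all genes, 0.904%), and in both there were 2 (28.6%, interval 3.67 to 71%; all genes, 0.548%). These intervals cover the counting of genes only, and the SRP RNA genes are related in sequence. No test of the group was made, because it has 7 genes and earlier results on these data were known when it was chosen. Any pooled summit lay within 500 bp of all 7 genes, against 38.3% of all nuclear genes, and any summit of both replicates lay there for 6 (85.7%), against 26.6%. The median pooled rank of the strongest summit was 482 for the 7 genes and 10587 for the 17962 other nuclear genes that had one. By the list of replicate 1 the median for the 7 genes was 3462, and by that of replicate 2 it was 277 for the 6 genes with a summit.

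Other small RNA genes gave shares of their own. A reproducible summit lay within 500 bp of 16.3% of 612 tRNA genes (interval 13.5 to 19.5%), which are read by RNA polymerase III. The share was 2.33% of 129 snRNA genes (interval 0.482 to 6.65%) and 11.6% of 346 snoRNA genes (interval 8.39 to 15.4%). Neither of these 2 classes was split by polymerase here. Of 20 rRNA genes, 0 had a reproducible summit (interval 0 to 16.8%). The difference between the 7 genes and these classes was not tested. The median position was taken over the genes with a reproducible summit only. It was 26 bp inside the RNA for 3 of the 7 genes and 16 bp for 100 tRNA genes. For 3 snRNA genes it was 4 bp, and for 40 snoRNA genes -47 bp.

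**Figure D2:**
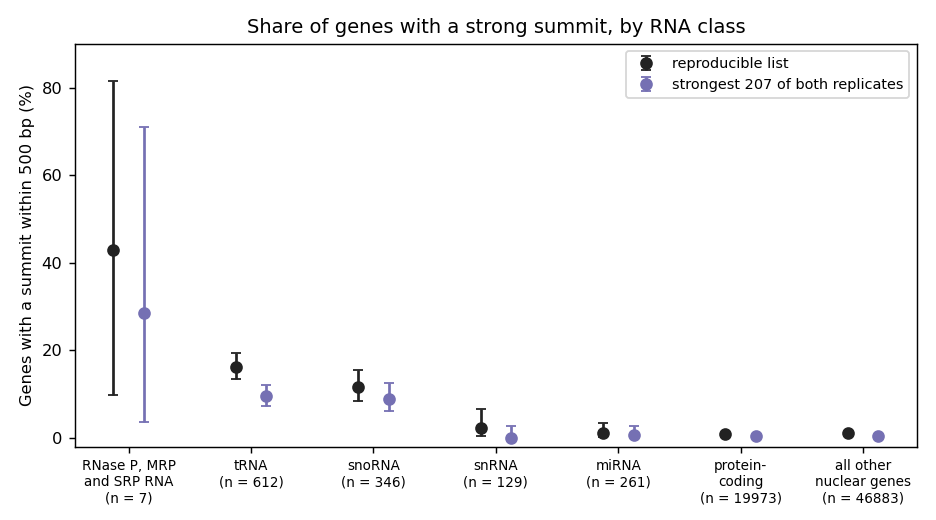
Percentage of genes of each class with a summit within 500 bp in the reproducible list (black) or among the equally many strongest entries of both replicates (violet). Bars are exact 95% binomial intervals over genes. The 7 genes are at 42.9% and 28.6%, with intervals that span 9.9 to 81.6% and 3.67 to 71%.

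**Figure D3:**
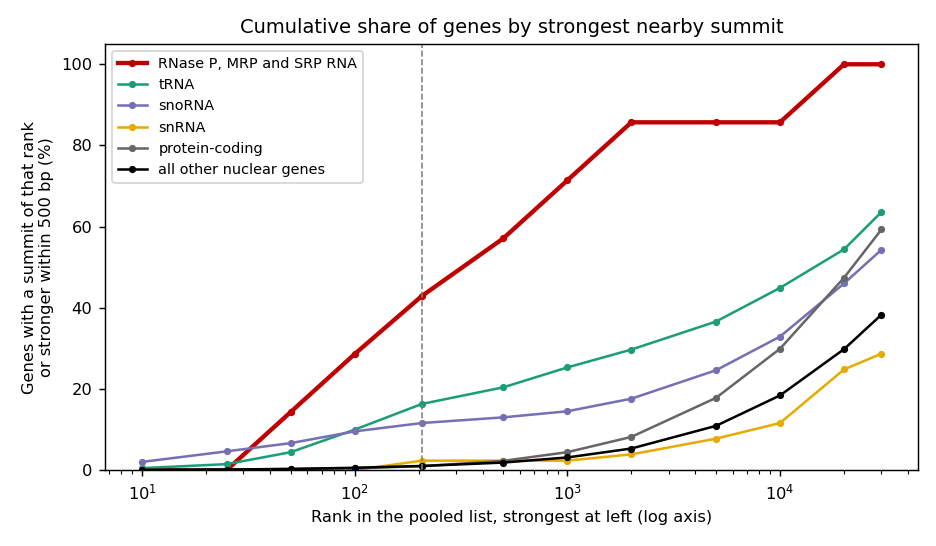
Percentage of genes (vertical axis) with a summit of the given pooled rank or stronger within 500 bp (horizontal axis, log scale), by class. Of the 7 genes, 57.1% had one by rank 500 and 85.7% by rank 2000, against 1.86% and 5.32% of all other nuclear genes. The dashed line is the length of the reproducible list.

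The small RNA genes closest in pooled rank show how the replicates ranked peaks of like strength. Next to rpr-1 were the snoRNA gene F55A11.10, at rank 34 in replicate 1 and 27 in replicate 2, and F32E10.10, at 36 and 32. The third was the tRNA gene F17H10.t1, at 101 and 11. Next to mrpr-1 were the tRNA gene F29C4.t1 (80 and 52) and the snoRNA genes D1046.6 (71 and 82) and M106.6 (55 and 66). Next to srpr-2.2 were the tRNA genes Y82E9BR.t1 (61 and 584) and F14B6.t2 (12016 and 63) and the snoRNA gene T24H7.6 (18679 and 57). The neighbours of srpr-2.2 in rank thus also differed between replicates, and 2 of those 3 were weak in replicate 1 as srpr-2.2 was.

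The summits were close to the RNAs. Of the 28 summits within 500 bp in the pooled and replicate lists, the farthest lay 72 bp from its gene (srpr-2.2, pooled rank 13745), and the nearest one past the limit lay at 789 bp (srpr-2.2, replicate 2 rank 25024). The strongest pooled summit was inside the RNA at 6 of the 7 genes. At rpr-1 and mrpr-1 all summits ranked within that length fell between -6 and 27 bp, and at srpr-2.2 they fell at 110 and 132 bp. The peaks themselves are wider than this spacing, at 420 bp in the pooled list, 390 bp in replicate 1 and 450 bp in replicate 2.

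At 5 of the 7 genes the pooled list held 2 summits, 204 to 222 bp apart. The smallest distance between neighbouring summits anywhere in that list was 199 bp, and 7.66% of neighbours were within 250 bp. That is a share of the gaps between summits and not of genes. The share of all genes with 2 pooled summits is not given here, so the 5 of 7 has no background beside it. The second summits of rpr-1 and mrpr-1 were weak, at ranks 21790 and 24050, as was that of srpr-2.2 at 13745. At srpr-1.2 and srpr-2.1 the members of the pair were closer in rank, at 1408 and 2816 and at 844 and 1803. There the pair stood at either end of the RNA, at 31 and 253 bp in srpr-1.2 and at 50 and 259 bp in srpr-2.1.

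The SRP RNA genes are near copies of each other, so short reads from them may not be placed uniquely. The genes srpr-2.1 and srpr-2.2 were identical at 296 of 299 aligned positions (99%), and srpr-1.1 and srpr-1.2 at 294 of 299 (98.3%). Between these pairs identity was 94 to 94.3%, and srpr-3 was 81.7 to 82.3% identical to the others. Of the words of 36 bases centred in the gene, an assumed read length, 80.9% occurred more than once in the genome for srpr-1.1, 68.9% for srpr-1.2, 66.2% for srpr-2.1 and 64.9% for srpr-2.2. The count was 0 for srpr-3, rpr-1 and mrpr-1. All copies of the repeated words inside the 4 genes lay at these RNA genes and not elsewhere in the genome.

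The gene with the largest repeated share, srpr-1.1, was the one whose summits all lay outside the gene, past the last repeated word at 276 bp. The genes with none inside the RNA, rpr-1, mrpr-1 and srpr-3, had pooled ranks of 26, 59 and 482. The gene srpr-2.2, at pooled rank 122, was as repeated as srpr-2.1, at 844, and the pooled summits of both lay in repeated sequence. How far the placing of reads between the copies set these ranks was not tested. In the 500 bp upstream, 8.6% of the words were repeated at rpr-1, 7.2% at srpr-1.1, 6% at srpr-1.2 and 0.4% at mrpr-1, while srpr-2.1, srpr-2.2 and srpr-3 had 0 there. In the 500 bp downstream, 5.2% were repeated at rpr-1 and 0 at the other 6 genes.

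**Figure D4:**
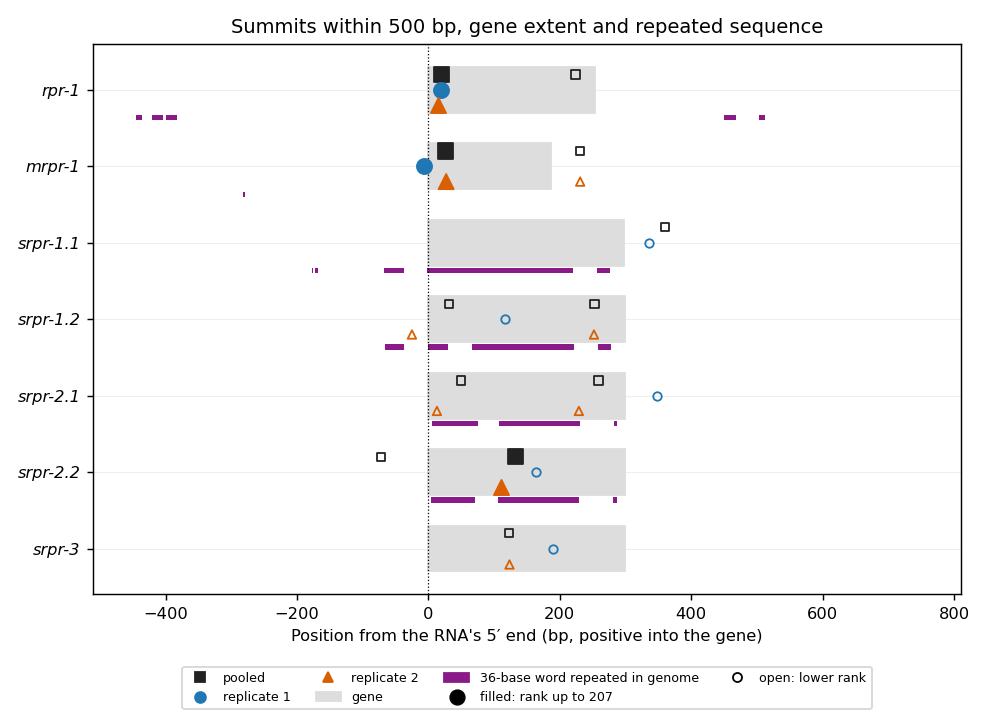
Summits within 500 bp of each gene, by distance from the first base of the RNA (bp), in the pooled list (squares), replicate 1 (circles) and replicate 2 (triangles). Large filled symbols have a rank within the length of the reproducible list. Grey boxes are the genes and purple lines mark the centres of 36-base words that occur more than once in the genome. The strong summits of rpr-1 and mrpr-1 lie from -6 to 27 bp and those of srpr-2.2 at 110 and 132 bp.

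The sequences before the RNAs shared short words in part. The word GTGTCNGCCGC, searched on both strands from 250 bases before to 50 after the 5′ end, was found at rpr-1 and mrpr-1 and at none of the SRP RNA genes. It began 56 bases before the RNA in rpr-1 and 58 in mrpr-1, and TATATAA began at -30 and -32. The word is rare, being in 0.0853% of the windows of all nuclear genes, in 0 of 612 tRNA windows and 0 of 129 snRNA windows. It was in 6 of 346 snoRNA windows (1.73%), where it began at -61 to -48. Of those 6 snoRNA genes, 0 had a reproducible summit, against 40 of the 340 snoRNA genes without the word. With only 6 genes this difference was not tested. The strongest of the 6 was F59C6.15, at rank 87 in replicate 1, 2491 in replicate 2 and 238 in the pooled list. The word was chosen after both upstream sequences had been seen, so its presence in both genes was fixed by that choice.

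The SRP RNA genes had other words in common. GAAAAACC stood directly before the RNA, at -8 to -1, in srpr-1.1, srpr-1.2, srpr-2.1 and srpr-2.2, as printed above. That placement was found at 5 of all 46890 nuclear genes (0.0107%). It was not in srpr-3, whose sequence before the RNA resembled theirs least, at 43 to 50.4% identity over 100 bases. TATAA on either strand began between -35 and -20 in 5 of the 7 genes, rpr-1, mrpr-1, srpr-1.1, srpr-1.2 and srpr-2.2, and in 8.91% of all windows. GAGAGA on either strand began at -49 in srpr-1.1, srpr-1.2 and srpr-2.2, and began between -55 and -40 in 1.36% of all windows. These placements were also chosen after the sequences had been seen.

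In the window from 250 bases before to 50 after the 5′ end, on both strands, the homeodomain core TAATTA was in 2 of the 7 genes, srpr-2.1 and srpr-3, against 16.6% of all windows. TAATTG was in 3, mrpr-1, srpr-1.1 and srpr-2.1, against 25.6%. Neither lay within 75 bases of the strongest pooled summit of any of the 7 genes (0 each). Those summit windows are shorter than the windows above, and no share over other summits is given here. The 0 counts therefore cannot be set against 16.6% and 25.6%. GTTCGA, the core of the tRNA B box, was in 0 of the 7 windows, against 10.3% of all windows and 17.2% of tRNA windows. These windows hold only the first 50 bases of a gene, so 17.2% is not the share of tRNA genes with the core. It was also in 0 of the 7 whole genes, for which no share over other whole genes is given here. TATAA was in all 7 windows (58.5% of all windows), GAGAGA in 4 (17.5%) and TTTT in all 7 (99.7%). TTTT on the RNA's own strand lay from 20 bases before to 30 after the 3′ end in 7 of 7 genes, against 60.7% of all nuclear genes and 99% of tRNA genes. These windows are not independent, since the SRP RNA genes are copies.

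The GC content within 75 bases to either side of the strongest pooled summit was 58.3% at rpr-1 and 55% at mrpr-1. At the SRP RNA genes other than srpr-1.1 it was 54.3 to 65.6%. It was 37.1% at the summit of srpr-1.1, which lay inside pals-26. The median was 49% over the reproducible list and 40.4% over the rest of the pooled list. Its part in the ranks was not tested.

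Protein-coding genes annotated to the same particles had no reproducible summit, and the strongest pooled summit among them ranked between those of srpr-3 and srpr-2.1. RefSeq product text or gene names gave 16 such genes, at least 1 of which entered through its product text and is not known as a subunit. Of the 16, 0 had a reproducible summit within 500 bp of the 5′ end, against 0.3% of all protein-coding genes, so 0 is close to the background. Any pooled summit lay there for 7 of them (43.8%), against 29.8% of all protein-coding genes. The strongest was at F37F2.2, for the SRP 19 kDa protein, with rank 1714 in replicate 1, 1328 in replicate 2 and 613 in the pooled list. Of the others with a pooled summit, Y37E11AM.4, F21D5.7, F25G6.8 and srpa-72 had pooled ranks of 7580 to 25841. No pooled summit lay at Y37F4.4, popl-1, popl-4, popl-5, popl-7, H35B03.2, Y62E10A.24, ZK512.4 or F25G6.9.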

How the data were processed

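The data are 4 ce11 peak lists. Per the file headers and records, the authors made 1 relaxed list per replicate from that replicate and a control, 1 pooled relaxed list, and a list thresholded on the irreproducible discovery rate (IDR). The authors deposited a peak signal per entry, on a scale of its own in each list, which was used only to rank entries within a list. They also deposited a −log10 q-value per entry, used for 1 alternative. Which aligner and peak caller were run was not given in the sources used here. Depth is unknown, since the lists hold no read counts, and the ce10 lists were not used here. Replicate numbers are those of the labels.

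Genes came from Ensembl release 115 (WBcel235), without mitochondrial genes. A summit belonged to a gene within 500 bp of its span. The named genes are the 7 RNA genes, their coding neighbours and hosts, small RNA genes within 1000 bp, and the 3 small RNA genes nearest in rank to each gene with a reproducible summit. Protein-coding genes of the particles were taken from RefSeq product text, including popl-1, whose text has the plural form, and popl-7 by name, and 2 of them are counted but not reported here one by one. The genes and lists were chosen with earlier results of these data known. Intervals are exact (Clopper-Pearson). The distance and rank functions were tested on simulated data with planted summits. Alternatives changed the distance, the number of strongest entries, the list, the word length and the window. Python 3.11.15, numpy 2.4.6, pandas 2.3.3, scipy 1.17.1, matplotlib 3.10.9 and Biopython 1.88 were used.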

Additional observations from a re-analysis of the deposited data

How the results depend on the processing

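Of 19 alternatives to the counts and the median rank, 17 stayed within 1.5 times the count or within the spread of the replicates. The count of genes in the strongest entries of both replicates was 1, in place of 2, when a shorter set of the strongest entries was taken. The number of genes with a reproducible summit was 2 to 3 when either replicate was left out, since srpr-2.2 was lost without replicate 2. The median rank was 277 to 3462 when either was left out, with the higher value from the list of replicate 1. Distances of 100, 250 and 1000 bp and overlap of the whole peak left both counts as they were. All summits within 500 bp lay at most 72 bp from their genes, so distances of 100 and 250 bp could not change the counts. The order by q-value, tried for genes with a reproducible summit, left that count at 3. That order had little room to differ, because the q-value cut kept as many entries as the reproducible list holds. Of 67 alternatives for single genes, words and repeats, 45 stayed within those limits. With words of 50 bases the repeated share of the gene and its flanks was 17.3% at srpr-1.1 and 0 at srpr-3. No paired analysis was possible because there is 1 group. With 2 replicates and no read counts, a difference in rank between replicates cannot be given an error.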
